A study of Solanum pimpinellifolium with 72 samples.

Results

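NPH3 (Solyc11g040040) is 1 gene of the 34727 in the deposited table of a whole mRNA-seq study of tomato meristems and floral buds. It was taken by its identifier and followed across all 72 libraries. The gene was chosen by its RPKM values in these libraries, being low in the 2 transgenic lines, so its differences between those lines and WT or fas are given below as a description, with no test. The libraries came from Solanum pimpinellifolium LA1589, a small-fruited wild relative of tomato (WT), and from 5 lines made in it. The line lc carries the cultivated allele at the LOCULE NUMBER locus, next to SlWUS, the tomato WUSCHEL gene that keeps stem cells in the meristem. The line fas carries the cultivated inversion in the promoter of SlCLV3, the tomato CLAVATA3 peptide gene that restrains SlWUS, and lc/fas carries both alleles. These near-isogenic lines and their WT came from a single backcross population. RNAi-SlCLV3 is LA1589 with a hairpin made from SlCLV3 and driven by the constitutive CaMV 35S promoter, and HC2 is the fas line, so still with the fas allele, to which a wild type SlCLV3 gene with its own promoter was added. RNAi-SlCLV3 and HC2 are the lines that went through transformation, and the labels do not say which transformation event stands in which library. Each genotype was sampled at 3 stages with 4 replicates: an early stage that joins inflorescence and floral meristems with the youngest buds (2dpi, days post floral initiation, in the sample labels), and buds at 4dpi and 6dpi. Tissue of several greenhouse plants of a genotype was collected week by week, so the 4 replicates of a group may come from the same plants, and p values measure only the spread between collections.

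Proteins of the NPH3 family carry a BTB domain, which often links a protein to a ubiquitin ligase, and an NPH3 domain. In Arabidopsis the founding member, NON-PHOTOTROPIC HYPOCOTYL3, sits at the plasma membrane with the blue light receptor phototropin and is needed for bending toward light, while the NPY members act with auxin transport in the formation of flowers and organs. The tomato gene keeps the name the study gave it, although the Arabidopsis gene paired with it there is AT3G19850, a member of the same family other than the founding gene. The study placed NPH3 among genes with a genotype-by-development effect, from separate 3′ tag libraries that are not used here. It also listed the gene among homologs of Arabidopsis genes that WUS represses. For that list, genes called among WT, lc, fas and lc/fas in the tag libraries were matched to WUS targets of an earlier Arabidopsis study. The identifier places the gene on chromosome 11, and the study marked it as lying outside the introgressed lc and fas segments.

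Levels are RPKM, reads per kilobase of gene scaled to the mapped reads of the library. The reads in genes, recovered from the steps in the RPKM values, ran from 2.75 M to 55.0 M reads per library with a median of 17.9 M, and 9 libraries lay under 10 M. NPH3 itself was covered by 31 to 1193 reads (median 319.5), and by 31 to 240 at the early stage, so its early values carry the most counting error. The stage labels were checked against markers in WT. SlWUS fell from 32.1 ± 13.0 RPKM (SD, n = 4) at the early stage to 4.78 ± 1.94 at 4dpi, and TAG1 (Solyc02g071730), the tomato AGAMOUS gene of stamens and carpels, was at 1.26 ± 0.655, 43.1 ± 4.10 and 115 ± 16.6 RPKM at the 3 stages. SlCLV3 (Solyc11g071380) was at 7.48 ± 2.40 RPKM in WT and 3.89 ± 1.12 in RNAi-SlCLV3 at the early stage (log2 difference -0.78, adjusted p = 0.036, limma). In bulk tissue, fewer cells that express a gene and less RNA per cell cannot be told apart.

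In every genotype NPH3 was low in the early sample and high in the buds. In WT the 4 early libraries held 7.68, 6.75, 12.9 and 13.1 RPKM (replicates 1 to 4), the 4dpi libraries 24.2, 32.0, 39.7 and 30.8, and the 6dpi libraries 32.4, 38.1, 34.1 and 35.5. All 4 early WT libraries were below all 8 bud libraries, while the 4dpi and 6dpi values overlapped. The group means were 10.1 ± 3.36, 31.7 ± 6.33 and 35.0 ± 2.39 RPKM (SD, n = 4). Among the 20577 genes tested, 38.7% had a lower WT mean than NPH3 at the early stage, against 67.9% at 4dpi and 69.5% at 6dpi.

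**Figure D1:**
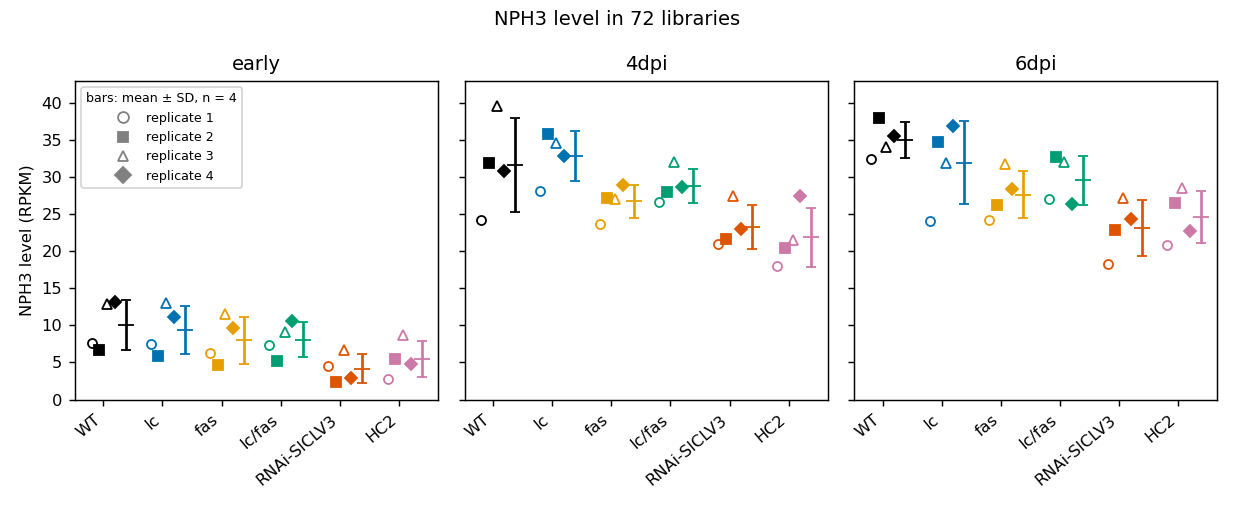
NPH3 level in RPKM (y axis, linear from 0) for each of the 72 libraries, by genotype (x axis) in a panel for each stage. Symbols are the 4 replicate numbers and the bars at the right of each group are the mean ± SD. The early groups have means of 4.15 to 10.1 RPKM and the bud groups of 21.9 to 35.0 RPKM, with RNAi-SlCLV3 and HC2 lowest within each stage.

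The step from the early stage to 4dpi was 1.59 on the scale of log2(RPKM + 1) in WT (SE 0.22, adjusted p = 5.3e-08 by limma with Benjamini-Hochberg adjustment over all genes tested), a 3.13-fold higher mean RPKM. It was 1.76 in lc, 1.69 in fas and 1.75 in lc/fas, with adjusted p values of 3.5e-09, 1.2e-08 and 5.0e-09 in limma. In RNAi-SlCLV3 the step was 2.31 (adjusted p = 1.3e-12, limma) and in HC2 it was 1.89 (adjusted p = 5.0e-10, limma). The gene was chosen for low values in these 2 lines, so their steps are not independent of the choice. In each of the 6 genotypes every 4dpi library was above every early library. Changes at this step were common: of all genes tested, the share that passed the same threshold of 0.05 in either direction was 28.0% in WT, 34.5% in lc, 27.5% in fas, 20.1% in lc/fas, 19.3% in RNAi-SlCLV3 and 25.3% in HC2. The share that was higher at 4dpi with no overlap of libraries was 9.44%, 9.39%, 11.2%, 12.1%, 11.0% and 9.62% in the same order.

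From 4dpi to 6dpi the level stayed within the spread of the replicates. The difference was 0.16 in WT, -0.05 in lc, 0.05 in fas, 0.03 in lc/fas, -0.02 in RNAi-SlCLV3 and 0.17 in HC2, each with an SE of 0.22. The limma adjusted p values ran from 0.73 to 1, and the 95% interval in WT was -0.29 to 0.61, which leaves room for a change of that size. The share of all genes tested that passed at this step was 8.10%, 11.8%, 7.32%, 5.93%, 4.38% and 9.78% in the same order of genotypes. The sign for lc, fas, lc/fas and RNAi-SlCLV3 changed when single libraries were left out, and that for fas also under quantile normalization.

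The order of the 18 group means ran from WT at 6dpi down to RNAi-SlCLV3 at the early stage. Among the buds, WT at 6dpi was followed by lc at 4dpi (32.9 ± 3.37 RPKM) and 6dpi (32.0 ± 5.60), WT at 4dpi, lc/fas at 6dpi (29.6 ± 3.29) and 4dpi (28.8 ± 2.33), and fas at 6dpi (27.7 ± 3.20) and 4dpi (26.7 ± 2.22). HC2 at 6dpi (24.7 ± 3.46), RNAi-SlCLV3 at 4dpi (23.3 ± 2.95) and 6dpi (23.2 ± 3.73) and HC2 at 4dpi (21.9 ± 4.00) closed the bud groups. The early groups came in nearly the same order of genotypes: WT, lc (9.39 ± 3.29), lc/fas (8.08 ± 2.34), fas (8.02 ± 3.16), HC2 (5.44 ± 2.46) and RNAi-SlCLV3 (4.15 ± 1.95). Every pair of neighbours in this order had overlapping libraries except HC2 at 4dpi and WT at the early stage, where the gap was 11.8 RPKM against a larger SD of 4.00. Neighbours in the order therefore do not differ beyond their spread, apart from the step between the early stage and the buds.

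The transgenic lines stood lowest at each stage, which is what the gene was chosen for. The early RNAi-SlCLV3 libraries held 4.55, 2.39, 6.73 and 2.92 RPKM (replicates 1 to 4) and the HC2 libraries 2.75, 5.52, 8.69 and 4.81. All 4 RNAi-SlCLV3 values were below all 4 WT values, though the highest of them, 6.73, almost reached the lowest WT value of 6.75. The third HC2 library was above the first and second WT libraries, so these ranges overlapped. The ratio of the means to WT was 0.411 for RNAi-SlCLV3 and 0.539 for HC2, and the differences on the log2 scale were -1.13 and -0.81. In this comparison of RNAi-SlCLV3, 1.88% of all genes tested were called lower and 3.82% were lower with no overlap, and for HC2 0.316% were called lower.

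In the buds the differences were smaller in log2 terms. At 4dpi RNAi-SlCLV3 held 21.0, 21.6, 27.5 and 23.0 RPKM, and HC2 18.1, 20.5, 21.6 and 27.5. Both ranges overlapped that of WT through a single library above the lowest WT value. The ratios to the WT mean were 0.736 and 0.692, with log2 differences of -0.41 and -0.51. At 6dpi RNAi-SlCLV3 held 18.2, 22.9, 27.2 and 24.4 RPKM and HC2 20.9, 26.5, 28.5 and 22.7, and every one of these 8 values was below the lowest WT value of 32.4. The ratios were 0.661 and 0.704 (log2 differences -0.59 and -0.50). Of all genes tested, 2.60% were lower with no overlap in RNAi-SlCLV3 at 6dpi and 1.67% in HC2. The share of genes called lower was 0.763% and 0.360% in RNAi-SlCLV3 at 4dpi and 6dpi, and 0.486% and 0.243% in HC2. How the difference changed between stages was not tested, since these contrasts chose the gene. SlWUS (Solyc02g083950) was higher than in WT in the RNAi-SlCLV3 buds, at 14.4 ± 1.61 and 9.39 ± 0.844 RPKM at 4dpi and 6dpi (log2 differences 1.48 and 1.41, limma adjusted p = 6.8e-05 and 0.00028). In HC2 buds SlWUS was at 5.09 ± 1.41 and 2.51 ± 1.11 RPKM against 4.78 ± 1.94 and 2.92 ± 0.367 in WT, while NPH3 was low there too. The part of SlWUS in the NPH3 values was not tested.

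Averaged over stages, NPH3 was -0.71 on the log2 scale in RNAi-SlCLV3 and -0.61 in HC2 against WT, and both were below the same-numbered WT library in all 12 of 12 pairs. These comparisons share the WT libraries. Of all genes tested, 1.49% were lower in all 12 pairs in RNAi-SlCLV3 and 0.875% in HC2, and 4.97% and 2.06% were called lower over stages. Against fas, the line it was made from, HC2 was -0.50, -0.29 and -0.16 at the 3 stages and -0.32 over stages. The HC2 and fas libraries overlapped at each stage, and HC2 was below the same-numbered fas library in 3, 4 and 3 of 4 pairs at the 3 stages. No share over all genes was computed for these counts against fas. The early difference was -0.26 without the first HC2 library and -0.31 without the third fas library, and at 6dpi it was -0.09 and -0.10 without the libraries of the same numbers. RNAi-SlCLV3 and HC2 carry constructs meant to act on SlCLV3 in opposite directions. At the early stage, though, mean SlCLV3 RNA was below WT (7.48 ± 2.40 RPKM) in both, at 3.89 ± 1.12 and 5.34 ± 0.293. The HC2 libraries overlapped those of WT, and fas was at 4.98 ± 1.09 RPKM. The paper gives incomplete RNAi or RNA of the hairpin itself as the likely source of the SlCLV3 signal left in RNAi-SlCLV3. The part of SlCLV3 in the NPH3 values was not tested. Both lines went through transformation, so the construct and the transformation cannot be told apart in these contrasts.

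The gene was chosen for low values in both transgenic lines, so their difference from each other is also given as a description. The difference of RNAi-SlCLV3 minus HC2 was -0.32 at the early stage, 0.09 at 4dpi and -0.09 at 6dpi (SE 0.22 each), and the libraries overlapped at each stage. Over stages it was -0.11 (SE 0.13, 95% interval -0.36 to 0.15). Of all genes tested, 2.45%, 2.54% and 1.14% passed between these lines at the 3 stages and 7.28% over stages. At 6dpi the sign turned (0.01) without the first RNAi-SlCLV3 library.

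Since NPH3 rose from the early stage to the buds, the developmental position of each early library was placed on a scale from the mean of WT early libraries (0) toward the 4dpi buds (near 1). The scale used 1011 genes that changed at least 2-fold between the early stage and 4dpi in lc, fas and lc/fas, without NPH3. The WT early libraries lay at 0 ± 0.104 (SD, n = 4), RNAi-SlCLV3 at 0.0533 ± 0.115 and HC2 at 0.0655 ± 0.0478. The early means of the transgenic lines were thus on the bud side of WT, within the spread of the libraries. In the buds RNAi-SlCLV3 lay behind WT, at 0.97 ± 0.0521 against 1.01 ± 0.0473 at 4dpi and at 1.12 ± 0.0185 against 1.18 ± 0.0376 at 6dpi, where all 4 of its libraries were below all 4 of WT. This is the side on which NPH3 is lower. HC2 was at 1.02 ± 0.0266 and 1.19 ± 0.00939, above the WT means. Of the 693 genes on the scale that rise into the buds, the median difference of RNAi-SlCLV3 from WT at the early stage was 0.02, and 6 of them were as low as NPH3. For HC2 the median was 0.10, and 2 were as low. In the RNAi-SlCLV3 buds their medians were below WT, at -0.06 at 4dpi and -0.09 at 6dpi against 0.050 and 0.0035 over all genes, and 106 and 14 of them were as low as NPH3. In HC2 buds the medians were 0.01 at both stages, against 0.03 over all genes, and 25 and 18 were as low. Since NPH3 was chosen for low values in these 2 lines, low counts of genes as low follow from the choice. TAP3 (Solyc04g081000), the tomato APETALA3 gene of petals and stamens, was at 1.77 ± 0.815 RPKM in WT, 0.942 ± 0.364 in RNAi-SlCLV3 and 6.97 ± 5.47 in HC2 at the early stage. It was higher in HC2 than in WT (1.37, adjusted p = 0.030, limma), the direction of later tissue, while NPH3 was lower there. TAG1 was at 3.25 ± 0.739 and 4.11 ± 3.17 RPKM in the 2 lines, and neither differed from WT past the threshold at that stage (limma adjusted p = 0.074 and 0.092). Their part in the NPH3 values was not tested.

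**Figure D2:**
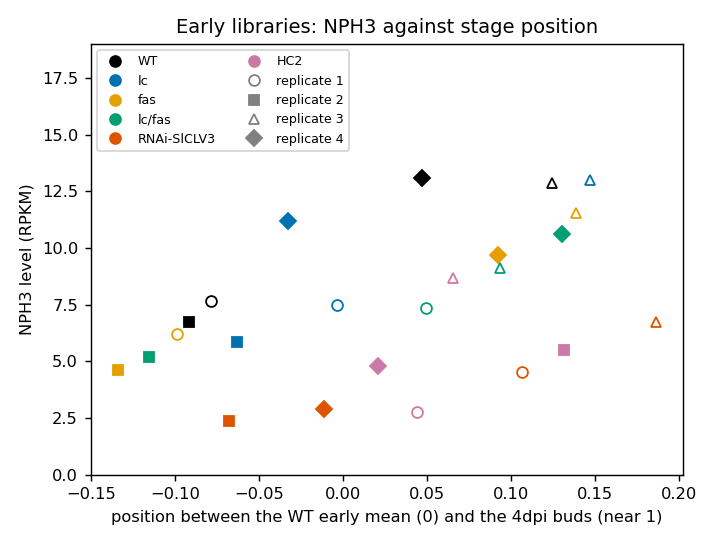
NPH3 level in RPKM (y axis, from 0) against the position of each of the 24 early libraries on the scale from the WT early mean to the 4dpi buds (x axis), coloured by genotype with a symbol for each replicate number. RNAi-SlCLV3 and HC2 (mean positions 0.0533 and 0.0655) lie low on the y axis at positions that largely overlap those of the other genotypes, and within most genotypes the libraries farther to the right are higher.

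In the natural lines the means of NPH3 were near WT in lc and lower in fas and lc/fas, but no difference passed the threshold. The gene was chosen against the same WT libraries, so these differences from WT are not independent of the choice. At the early stage fas held 6.22, 4.63, 11.6 and 9.68 RPKM, at 4dpi 23.7, 27.2, 27.1 and 29.0, and at 6dpi 24.3, 26.3, 31.8 and 28.4. Each of these 12 values was below the WT library of the same stage and number, and at 6dpi all 4 were below all 4 of WT. Of all genes tested, 0.258% were lower in fas in all 12 pairs and 0.554% were lower with no overlap at 6dpi. The differences were -0.32, -0.22 and -0.33 at the 3 stages (SE 0.22 each, limma adjusted p = 0.88, 1 and 1). Single libraries moved them. Without the second fas library the early difference was -0.11 and without the third -0.50, and it was -0.19 without either the third or the fourth WT library. At 4dpi it was -0.34 without the first and -0.11 without the third WT library. Over stages the difference was -0.29 (SE 0.13, 95% interval -0.55 to -0.03), with an unadjusted p of 0.028 and an adjusted p of 0.60 in limma. With the replicate number as a block the adjusted p was 0.22, and with a block within each stage it was 0.063, so the call did not change. Of all genes tested, 0.0583%, 0.0194% and 0.0243% were called in fas at the 3 stages and 0.0826% over stages.

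For lc the differences from WT were -0.10, 0.07 and -0.14 at the 3 stages and -0.06 over stages (SE 0.13, 95% interval -0.32 to 0.20, limma adjusted p = 1), and 7 of 12 libraries were below the same-numbered WT library. The lc libraries held 7.51, 5.85, 13.0 and 11.2 RPKM at the early stage, 28.2, 35.9, 34.7 and 32.9 at 4dpi, and 24.2, 34.8, 31.9 and 37.0 at 6dpi, overlapping WT at each stage. Of all genes tested, 0.180%, 0.175% and 0.146% were called in lc at the 3 stages and 0.539% over stages. For lc/fas the differences were -0.28, -0.11 and -0.24, and -0.21 over stages (SE 0.13, 95% interval -0.47 to 0.05, limma adjusted p = 0.54), with 11 of 12 libraries below the same-numbered WT library. The share of all genes with such counts was not computed for lc or lc/fas, so these counts have no baseline. Its libraries held 7.34, 5.21, 9.14 and 10.6 RPKM at the early stage, 26.6, 28.0, 32.1 and 28.6 at 4dpi, and 27.1, 32.8, 32.1 and 26.4 at 6dpi. The value 32.8 exceeded the lowest WT library, so these ranges also overlapped. The early lc/fas difference was -0.11 without its second library, and -0.43, -0.15 and -0.14 without WT replicate 2, 3 and 4 in turn. At 4dpi it was -0.23 without the first and -0.0013 without the third WT library. In lc/fas 0.360%, 0.267% and 0.180% of all genes tested were called at the 3 stages and 1.02% over stages.

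**Figure D3:**
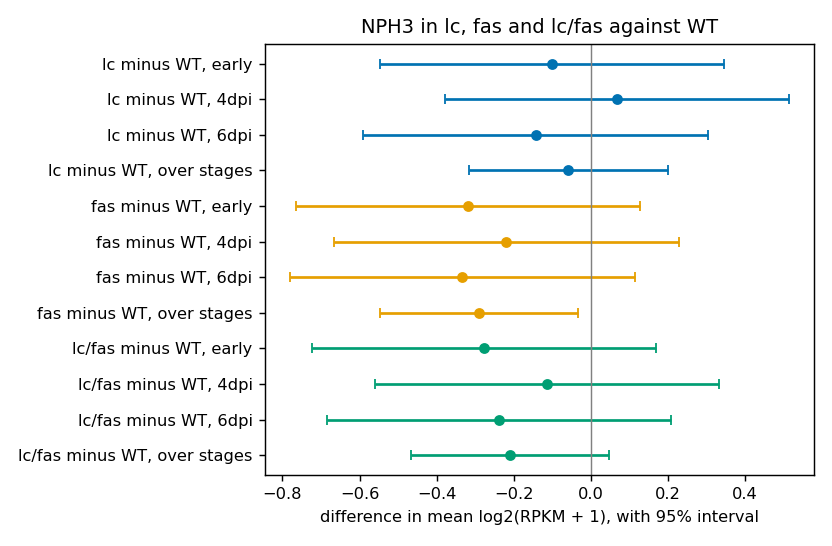
Difference in mean log2(RPKM + 1) of NPH3 from WT (x axis) in lc, fas and lc/fas at each stage and over the 3 stages, with 95% intervals from limma. All intervals include 0 except that of fas over stages (-0.55 to -0.03), whose adjusted p over all genes tested was 0.60.

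The double line did not differ from either single line in NPH3 past the threshold. It was -0.15 from lc and 0.08 from fas over stages (SE 0.13 each, limma adjusted p = 0.68 and 1). The interaction of the 2 alleles, the difference of lc/fas from what the single lines add up to, was 0.14 over stages (SE 0.18, 95% interval -0.23 to 0.50, limma adjusted p = 1). At single stages it was 0.14, 0.04 and 0.24 (SE 0.32 each). A genotype by stage test in the 48 libraries of WT, lc, fas and lc/fas gave F = 0.114 with an unadjusted p of 0.99 (moderated F test, limma), where 0.0243% of all genes tested passed. The tag libraries in which the study listed the gene covered the same later bud stages. They differed in keeping the flower and inflorescence meristems apart from the youngest buds, and in also holding the sympodial meristem. The threshold for that list was set on unadjusted p values.

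Part of the spread within groups went with the replicate number. Among early libraries the third replicate was above its group mean in all 6 genotypes, by 0.49 on average on the log2 scale, while the second was below in 5 of 6 (mean deviation -0.43) and the first in 5 of 6 (-0.23). At 4dpi and 6dpi the first replicate was below its group mean in 6 of 6 genotypes, by -0.20 and -0.22 on average. The third early replicates also lay farther toward the buds on the stage scale in 5 of 6 genotypes, by 0.0975 on average, and the second ones lay back by -0.0851. The part of this position in the NPH3 deviations was not tested.

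**Figure D4:**
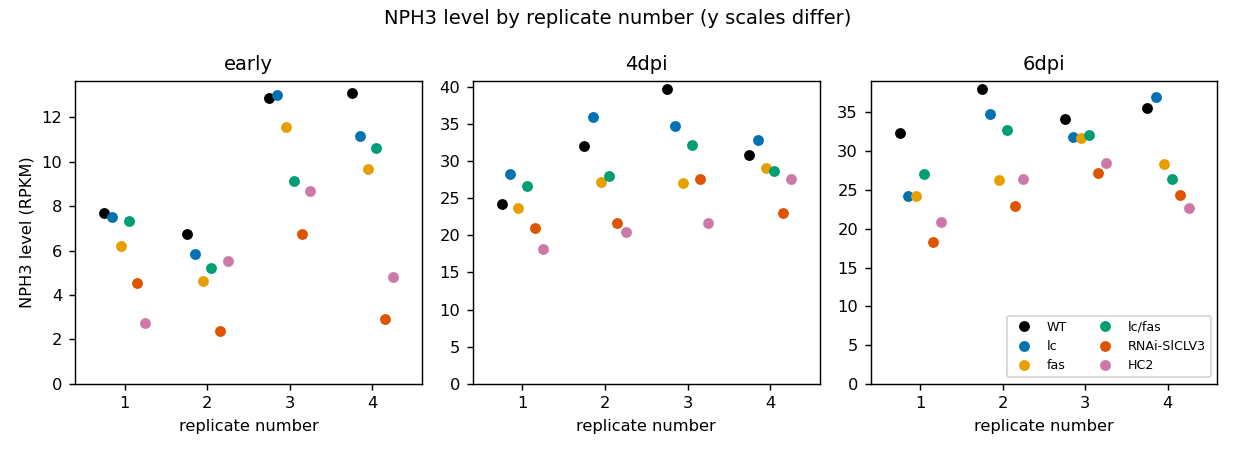
NPH3 level in RPKM (y axes from 0, with a separate scale for each stage) by replicate number (x axis), with a point for each genotype. At the early stage the third replicate exceeds the first and second in every genotype, for example 12.9 RPKM against 7.68 and 6.75 in WT.

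Other genes of the family were followed as a list of 6 homologs that the study's supplement pairs with Arabidopsis NPH3 family genes, with the PHOT1 homolog, for the phototropin that NPH3 proteins bind, and SlSoPIN1a, an auxin efflux carrier. The list was put together with values already seen, and it holds only genes that the supplement lists, so it is neither complete nor independent. All 8 passed the filter on low values, at least 1 RPKM in at least 4 libraries. In RNAi-SlCLV3 at the early stage 1 of the 8 was higher and 2 were lower than in WT, where 4.58% of all genes tested were called, and over stages 3 were higher and 2 lower (12.9% of all genes). At 4dpi 1 was higher (3.46%), and at 6dpi 1 was lower (1.25%). In HC2 1 was higher and 1 lower at the early stage (1.39% of all genes) and over stages (6.65%), and none was called at 4dpi (1.39%) or 6dpi (0.943%). In fas none was called at any stage or over stages. There between 0.0194% and 0.0826% of all genes tested were called, so no call is usual for 8 genes.

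The RPT2 homolog (Solyc07g043130) was the member with the largest change and moved against NPH3. In Arabidopsis RPT2 (ROOT PHOTOTROPISM2) acts with NPH3 and phototropin in phototropism under brighter blue light. In early libraries it was at 1.91, 2.21, 2.06 and 0.703 RPKM in WT (replicates 1 to 4), 3.52, 4.76, 8.91 and 3.40 in RNAi-SlCLV3, and 8.18, 7.47, 10.6 and 7.73 in HC2. Of all genes tested, 4.58% in RNAi-SlCLV3 and 1.39% in HC2 were called against WT at this stage. The share that was higher with no overlap is not given here. Every RNAi-SlCLV3 library was above every WT library, and every HC2 library was above 3 of the 4 RNAi-SlCLV3 libraries. The RPT2 homolog was thus higher by 1.14 on the log2 scale in RNAi-SlCLV3 (SE 0.21, adjusted p = 0.00013, limma, and 0.12 in a fit of the compared groups alone, which ends the call) and by 1.83 in HC2 (adjusted p = 1.6e-09, limma). Its levels in lc, fas and lc/fas were 2.22 ± 0.922, 1.30 ± 0.243 and 1.83 ± 0.683 RPKM, and each overlapped WT. Replicates 1 to 3 of lc (2.41, 2.33 and 3.19 RPKM) and replicate 3 of lc/fas (2.59) were above every WT library. Against fas, HC2 was higher by 2.04 (adjusted p = 4.6e-11, limma), and by 1.14 over stages (adjusted p = 7.3e-11), where 1.39% and 3.81% of all genes tested were called.

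In the buds the RPT2 homolog (Solyc07g043130) rose in WT, to 8.27 ± 2.24 RPKM at 4dpi and 20.2 ± 3.68 at 6dpi, and the lines lay closer together in log2 terms. RNAi-SlCLV3 was at 13.8 ± 1.86 RPKM at 4dpi (0.69 above WT, adjusted p = 0.049 in limma, lost without the first WT library, 0.12, and without any of 5 other single libraries) and 21.1 ± 3.95 at 6dpi (0.06, adjusted p = 1). HC2 was at 13.5 ± 2.09 and 31.2 ± 2.93 RPKM, with differences from WT of 0.66 and 0.62 that did not pass (limma adjusted p = 0.10 and 0.24). The change in the difference from WT between the early stage and 6dpi was 1.07 in RNAi-SlCLV3 and 1.21 in HC2 (SE 0.30 each) and did not pass over all genes (limma adjusted p = 0.097 and 0.11).

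The AT3G22104 homolog (Solyc07g052970) was lower than WT in both transgenic lines at the early stage, as NPH3 was. The Arabidopsis gene is a family member without a well-known role. In early libraries it was at 3.60, 4.03, 5.27 and 4.13 RPKM in WT, 1.98, 1.97, 2.57 and 1.99 in RNAi-SlCLV3 and 3.33, 3.21, 2.60 and 2.36 in HC2. Neither line overlapped WT, and every RNAi-SlCLV3 library but the third was below every HC2 library. Of all genes tested, 3.82% were lower than WT with no overlap in RNAi-SlCLV3 at this stage. That share is not given here for HC2, where 0.316% were called lower. The AT3G22104 homolog fell by 0.75 in RNAi-SlCLV3 (SE 0.12, adjusted p = 1.1e-05, limma) and by 0.44 in HC2 (adjusted p = 0.043, limma). The call in HC2 was lost when the third WT library (adjusted p = 0.31) or any of 4 other single libraries was left out. Its limma adjusted p reached 0.54 when libraries or a replicate number were left out, and 0.44 among the other alternatives. The homolog was lower in RNAi-SlCLV3 over stages too (-0.47, adjusted p = 7.1e-07, limma). In HC2 buds it was at 4.43 ± 0.813 RPKM at 4dpi and 7.72 ± 0.787 at 6dpi, against 5.17 ± 0.589 and 8.11 ± 0.569 in WT, and was not called. Over stages it was -0.23 in HC2, where the limma adjusted p reached 0.37 with libraries left out. In fas it was at 3.06 ± 0.343 RPKM at the early stage, -0.37 from WT (adjusted p = 0.54, limma). All 4 early fas libraries (2.64, 2.94, 3.35 and 3.34 RPKM) were also below every WT library. The share of all genes lower in fas with no overlap at this stage is not given here. HC2, which was made from fas, overlapped fas at this stage, so its low values are not particular to the transgenic line.

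**Figure D5:**
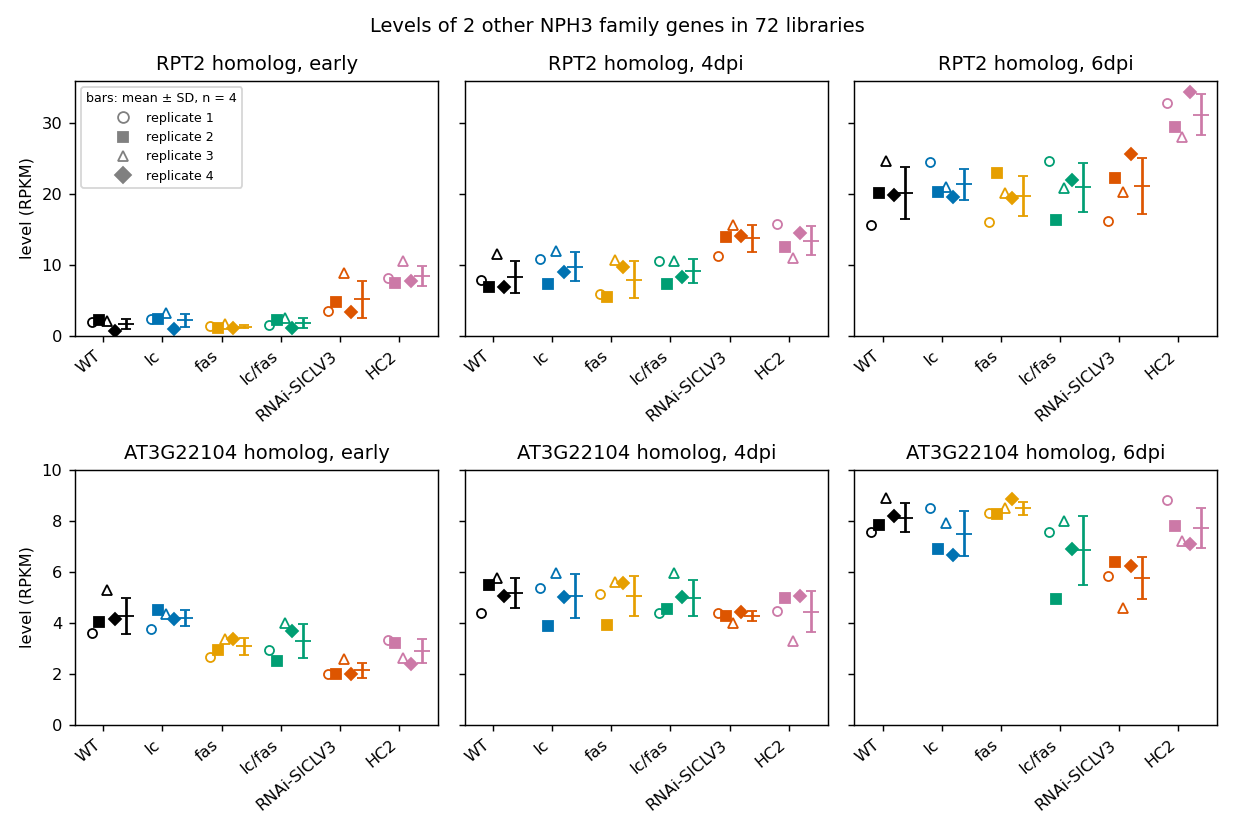
Levels in RPKM (y axes, linear from 0) of the RPT2 homolog (top) and the AT3G22104 homolog (bottom) in each of the 72 libraries, by genotype and stage, with the mean ± SD at the right of each group. At the early stage the RPT2 homolog is at 5.15 and 8.48 RPKM on average in RNAi-SlCLV3 and HC2 against 1.72 in WT, and the AT3G22104 homolog is at 2.13 and 2.87 against 4.26.

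Of the other members, the AT5G66560 homolog (Solyc02g090070), of a family gene without a well-known role, was lower in RNAi-SlCLV3 at the early stage, at 11.0 ± 0.601 against 14.5 ± 0.299 RPKM in WT (-0.37, adjusted p = 0.0018, limma). It was at 14.5 ± 1.47 RPKM in HC2, and the difference between the 2 transgenic lines passed (-0.37, adjusted p = 0.0029, limma). Both calls were lost in a fit of the compared groups alone (adjusted p = 0.075 and 0.10) and without replicate 4 of all groups (0.067 and 0.22). The DOT3 homolog (Solyc01g098820), of a gene needed for vein patterning in Arabidopsis, was at 3.56 ± 0.778 RPKM in RNAi-SlCLV3 and 2.33 ± 0.295 in WT at the early stage, and was higher over stages (0.28, adjusted p = 0.014, limma), a call lost without replicate 1 (0.11) or replicate 2 (0.21) of all groups. The NPY2 homolog (Solyc02g092480), of the group that acts with auxin in organ formation, was the most abundant family member per length at 56.7 ± 5.20 RPKM in early WT libraries, and its differences from WT in RNAi-SlCLV3 and HC2 lay between -0.09 and 0.06. The NCH1 homolog, of a gene for chloroplast accumulation in light, was at 0.331 ± 0.225 RPKM there, the lowest of the list. The PHOT1 homolog (Solyc11g072710) was at 5.89 ± 1.49 RPKM and differed from WT by 0.15 in RNAi-SlCLV3 (adjusted p = 0.76, limma) and -0.06 in HC2 (adjusted p = 1).

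Along the stages of WT, other members rose as NPH3 did or later. From the early stage to 4dpi the RPT2 homolog (Solyc07g043130) rose by 1.78, the NCH1 homolog (Solyc02g064720) by 0.81 and the NPY2 homolog (Solyc02g092480) by 0.43 (limma adjusted p = 4.3e-10, 3.0e-05 and 0.00028), while SlSoPIN1a (Solyc10g078370) fell by 0.71 (adjusted p = 2.2e-07). From 4dpi to 6dpi, where NPH3 was level, the RPT2 homolog rose by 1.20, the PHOT1 homolog (Solyc11g072710) by 1.12, the NCH1 homolog by 1.05 and the AT3G22104 homolog (Solyc07g052970) by 0.56 (limma adjusted p = 2.8e-05, 1.4e-05, 8.5e-07 and 0.00064). SlSoPIN1a fell by 0.56 at that step (adjusted p = 0.00011, and 0.059 in a fit of the compared groups alone).

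Besides NPH3, the study's list of homologs of WUS-repressed genes held 49 genes, all of which passed the filter. The list holds only genes that the study had already called in its tag libraries of WT, lc, fas and lc/fas. From the early stage to 4dpi in WT, as SlWUS fell, 18 of the 49 were higher and 2 lower, with a median difference of 0.19 against -0.10 over all genes, of which 28.0% were called at this step. Those that moved farthest were the homologs of AT2G45180 (Solyc06g065970, 2.68), LOL1 (Solyc08g077060, 2.19) and PBP1 (Solyc07g063690, 2.17), and SlCLV3 (Solyc11g071380), which fell by 1.85. LOL1 is a zinc finger protein of cell death control and PBP1 a calcium-binding protein that binds the PINOID kinase in Arabidopsis. In RNAi-SlCLV3 at the early stage 1 was higher and 4 were lower than in WT, with a median of -0.05 against 0.01 over all genes, of which 4.58% were called in either direction and 1.88% were lower. Over stages 1 was higher and 6 were lower, where 12.9% of all genes were called. The largest decreases at the early stage were those of Solyc06g065970 (-1.03), SlCLV3 (-0.78) and the homolog of YAB5 (Solyc07g008180, -0.74), a YABBY gene of lateral organs. SlCLV3 is the target of the hairpin, so its place among the lower genes was set by the construct. The paper also describes WUS as an activator of CLV3. The homolog of RBOHD (Solyc06g068680), an NADPH oxidase, rose by 0.93. In HC2 at the early stage none of the 49 passed (1.39% of all genes did), and 3 were higher and 1 lower over stages, where 6.65% of all genes were called.

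Of the other 12 genotype-by-development genes of the study, 3 were higher and 1 was lower than in WT in RNAi-SlCLV3 at the early stage, where 4.58% of all genes were called. They were Solyc06g054640 (1.88), SlSWEET1b (Solyc04g064620, 1.28), a sugar transporter gene, Solyc01g066880 (0.85) and SlCLV3 (Solyc11g071380, -0.78), the target of the hairpin. In HC2 at that stage, with 1.39% of all genes called, none was higher and 1 was lower, Solyc11g071810 (-3.30), SlYABBY2b, a gene that the fas inversion carried by HC2 interrupts. Of 10 PIN auxin efflux carrier genes, 6 passed the filter, and 1 of them, Solyc03g118740, was higher in RNAi-SlCLV3 at the early stage (0.67, adjusted p = 0.00036, limma). Over stages 2 of the 6 were higher in RNAi-SlCLV3 (12.9% of all genes were called). None passed in HC2 against WT at any stage or over stages, where between 0.943% and 6.65% of all genes were called, and 1 was higher in HC2 than in fas at the early stage (1.39%).

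The genes next to NPH3 in identifier order were also examined. Of the 10 tested genes on each side, none passed in RNAi-SlCLV3 or HC2 against WT at a single stage, where between 0.943% and 4.58% of all genes were called, so that few or no calls would be usual for 20 genes. The medians of the 20 were between 0.04 and 0.09 at the single stages. The nearest tested genes were Solyc11g039990, at -0.07 and -0.23 in the 2 lines at the early stage (limma adjusted p = 0.94 and 1), and Solyc11g040050, at 0.12 and 0.09 (adjusted p = 0.68 and 1). Over stages 1 of the 20, Solyc11g040060, named after its values were seen, was higher in both lines (0.38 and 0.36, limma adjusted p = 0.0099 and 0.029). Of all genes tested, 12.9% were called over stages in RNAi-SlCLV3 and 6.65% in HC2, so 1 call among 20 genes is not unusual.

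The genes most like NPH3 were taken by the correlation of their 18 group means. The highest Pearson correlation was 0.989, with Solyc12g088170, and the third was 0.984, with Solyc09g082660. The second was 0.985 (Spearman 0.967), with Solyc03g006880, which the study pairs with AT4G25420, a gibberellin 20-oxidase of Arabidopsis. The next followed at 0.983 (Solyc02g081340) and 0.981 (Solyc09g011480). The lowest were -0.978 (Solyc02g080010) and -0.976 (Solyc07g062300). Such values are common here, since 870 of 20576 genes exceeded 0.9 and the 18 points share the step between the early stage and the buds. Within groups, over the 72 libraries, the deviations of Solyc12g088170 from its group means correlated with those of NPH3 at 0.670 and those of Solyc03g006880 at 0.170. Of the family, the AT5G66560 homolog stood at 0.856, the AT3G22104 homolog at 0.850, the NPY2 homolog at 0.835, the RPT2 homolog at 0.712 and the DOT3 homolog at -0.865.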

How the data were processed

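The authors aligned single-end strand-specific reads with TopHat2 and Bowtie2 (versions not given in the sources used here) to the ITAG2.3 tomato annotation, kept sense-strand reads and deposited RPKM values per gene. The deposited RPKM table held 34727 genes, 5538 of them at 0 in every library. Read numbers were recovered from the steps of the RPKM values for depth only: all 72 NPH3 values were whole within 0.01 reads. Intervals cover the spread between libraries, which includes counting error. Values were analysed as log2(RPKM + 1), which understates changes of low genes, for 20577 genes that reached 1 RPKM in 4 or more libraries. A limma model (version 3.58.1, trend, run in R 4.3.3) held the 18 group means over all 72 libraries, with two-sided tests, Benjamini-Hochberg adjustment over all genes tested and calls at an adjusted p below 0.05. The fit was tested on simulated data. Depth and figures came from Python 3.11.15 (matplotlib 3.10.9, pandas 2.3.3, numpy 2.4.6).

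The gene and all lists were chosen with earlier results of these data known. Named genes are NPH3, SlCLV3, SlWUS, TAG1 and TAP3, family members called in any contrast (the others were named after their values were seen), up to 4 called members of each other list by size of change, the nearest tested neighbours, and the 5 most and 2 least alike genes by Pearson correlation of group means. Annotations and sequences for these identifiers were not used here, so lists by description, photosynthesis markers included, were not applied, and homologs are those the study pairs. Alternatives were a pseudocount of 0.1 RPKM, no filter or a mean of at least 5 RPKM, median-of-ratios scaling, quantile normalization, a fit of the compared groups alone, a replicate block and leaving out libraries. Replicate numbers were checked as pairs by correlating residuals of same-numbered libraries: every pair exceeded 0.1 in all stage steps and in lc, fas and lc/fas against WT (lowest 0.101), but not in HC2 against WT (lowest 0.0152) or in RNAi-SlCLV3 against WT at the early stage (lowest 0.0740).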

Additional observations from a re-analysis of the deposited data

Results flagged for a closer look

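In a check of the 18 groups of 4 libraries for NPH3, the RPT2 homolog and the AT3G22104 homolog (54 groups in all), 1 library lay far from the others of its group. It was the third early RNAi-SlCLV3 library for the AT3G22104 homolog, at 2.57 RPKM, with a gap of 0.957 of the group's range to the next value. Chance alone marks about 1 in 20 groups. No NPH3 group held such a library.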

How the results depend on the processing

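The rise of NPH3 from the early stage to 4dpi passed in all 6 genotypes under all 114 alternatives, and no other NPH3 test crossed the threshold in any of the alternatives. The steps in RNAi-SlCLV3 and HC2 are not independent of the choice of the gene. The sign turned in 26 of 1125 alternatives, each time for a small uncalled difference and in 25 of them when a library or replicate number was left out. Quantile normalization turned the step from 4dpi to 6dpi in fas to -0.0020. Leaving out libraries gave ranges of -0.13 to 0.072 for this step in lc, -0.021 to 0.10 in fas, -0.028 to 0.084 in lc/fas and -0.093 to 0.090 in RNAi-SlCLV3. The range of lc minus WT was -0.26 to 0.080 at the early stage, -0.049 to 0.18 at 4dpi and -0.11 to 0.0016 over stages. That of the interaction of lc and fas was -0.061 to 0.33 at the early stage and -0.092 to 0.16 at 4dpi, and that of RNAi-SlCLV3 minus HC2 at 6dpi was -0.17 to 0.015. The cause of these changes was not tested.

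With the replicate number as a block, fas minus WT over stages stayed at -0.29 (SE 0.10, limma adjusted p = 0.22). The block changed no NPH3 call. The block within each stage was added after seeing the data. For the genotype by stage test the block gave F = 0.189. Without it, an average over stages takes the libraries that share a number as separate samples.

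Of the 27 called differences of the family list, 12 were lost in at least 1 alternative and none turned. In RNAi-SlCLV3 against WT at the early stage the call of the AT3G22104 homolog passed in every alternative run, as did that of the RPT2 homolog in HC2. Scaling moved the median of all genes by at most 0.089. Depth limits the early values most, where 31 reads were behind NPH3 in the thinnest library.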
